A study of Mus musculus with 6 samples.

Results

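The beta 2 integrins and their partners are a group of 9 genes chosen by name: the common chain gene Itgb2, its paralog Itgb2l, the alpha chain genes Itgam, Itgal, Itgax and Itga4, the ligand genes Icam1 and Icam2, and Fermt3. All 9 were found by symbol among the 18238 genes of the table, and all 9 passed the expression filter that left 15242 genes for testing. Their transcripts were counted by RNA-seq in 6 mice that had lung cancer. In one group 3 mice received artemisinin, an antimalarial sesquiterpene lactone, and in the other 3 mice served as the model without that treatment, so both groups carry the cancer. The labels number the samples 1 to 3 within each group, and each sample is taken here as a separate mouse. No label says that equal numbers mark paired mice. The way the cancer was made, the strain, age, tissue, dose and time are not given in the sources used here.

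Integrins are adhesion receptors made of 1 alpha and 1 beta chain. The beta 2 chain (CD18) is found on leukocytes, where it pairs with the alpha chains of LFA-1 (Itgal), Mac-1 (Itgam), p150,95 (Itgax) and CD11d (Itgad). These receptors rest in a bent form until talin and kindlin-3, the product of Fermt3, bind the tail of the beta chain, and they then hold leukocytes to ICAM proteins on endothelium and epithelium. Itga4 pairs with other beta chains, Itgb1 and Itgb7, and binds VCAM-1 and MAdCAM-1.

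The libraries held between 25566173 and 34745497 counts. Artemisinin replicate 2 stood apart by skeletal muscle and keratinocyte markers, whose sums reached 5462 and 973.7 normalised CPM (library-scaled counts, with a correction for composition) there and at most 60.9 and 8.59 in the other libraries. The alveolar type 2 marker sum lay between 6465 and 20329 normalised CPM with artemisinin and between 48036 and 71700 in the model. RNA of these type 2 markers was thus present in every library, and its level differed between the groups. The alveolar type 1 sums overlapped between the groups, and the club cell sums were higher in every artemisinin library. Markers of all leukocytes were present in every library. In such bulk samples a higher number of cells of a type and more RNA per cell cannot be told apart.

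Of the 9 members, Itgam, Fermt3 and Itgb2l rose with artemisinin and none fell. Itgam rose 2.99-fold and Fermt3 1.81-fold, while Itgb2l went from near 0 to a measurable level in all 3 artemisinin mice. The common chain Itgb2 and the alpha chains Itgal and Itga4 had positive fold changes that missed the threshold, and Itgax, Icam1 and Icam2 lay close to or below the model level. A gene was called where the quasi-likelihood test of edgeR gave a Benjamini-Hochberg adjusted p below 0.05 over all genes, and 3 of 9 members were called higher, where 2.17% of all genes tested were. DESeq2 called 4 of 9 higher, with Itga4 added, where it called 8.14% of all genes higher. Limma on the FPKM called 2 of 9, Itgam and Fermt3, where it called 2.78% of its genes higher. No member was called lower by edgeR, DESeq2 or limma, which called 2.30%, 6.94% and 2.25% of all genes lower. At an unadjusted edgeR p under 0.05, 5 of 9 members were higher and 0 lower, where 13.7% of all genes were higher and 11% lower. In 5 of 9 members every artemisinin value was above every model value, which held for 16.3% of all genes tested. In 0 of 9 was every artemisinin value below, which held for 17.3%. The median log2 fold change was 0.50 over the 9 members and 0.04 over all genes. With any 1 model replicate left out edgeR called 0 members, where it called 6 to 39 of all genes higher. In those fits 4 of 9 were higher at an unadjusted p under 0.05. The share of all genes at that level in those fits is not given here. The labels do not say how the mice were sampled, so the p-values measure the spread between these libraries.

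**Figure D1:**
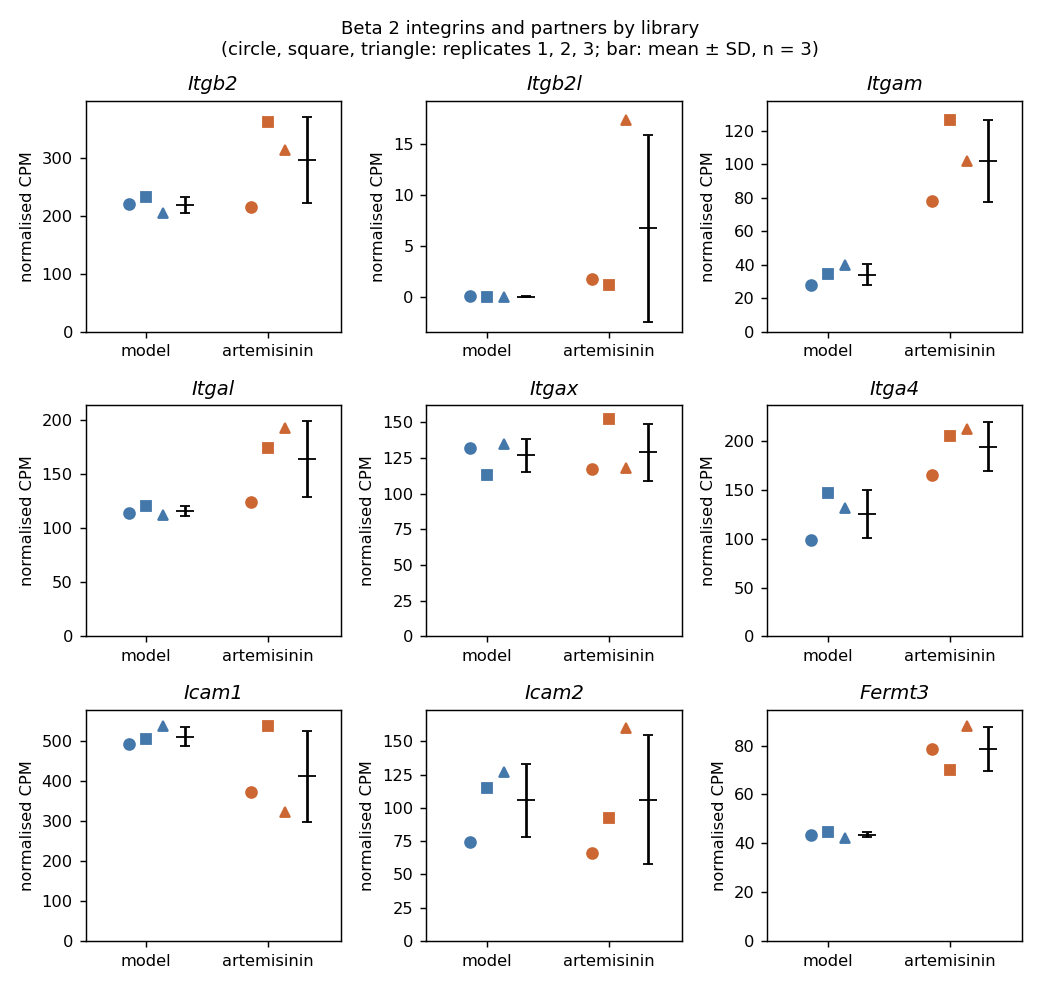
Normalised CPM of the 9 members in each library, with blue points for the model, orange points for artemisinin, 1 marker shape per replicate number and the mean ± SD (n = 3) beside each group. Itgam and Fermt3 have all artemisinin points above all model points, and the Itgb2l mean with artemisinin rests mostly on replicate 3.

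The alpha chains were taken first. Itgam, the alpha chain of Mac-1 that binds ICAM-1, fibrinogen and the complement fragment iC3b (Entrez 16409, chromosome 7, 128062640 to 128118491, GRCm38), had 77.9, 126.5 and 101.9 normalised CPM in artemisinin replicates 1, 2 and 3. The model values were 27.9, 34.3 and 40.1. The lowest artemisinin mouse stood well above the highest model mouse. The means were 102.1 ± 24.3 and 34.1 ± 6.10 normalised CPM (SD over n = 3 mice each), or a log2 change of 1.58 ± 0.22 (SE; adjusted p by edgeR = 0.0182). Leaving out any 1 artemisinin replicate kept the Itgam call, and leaving out model replicate 1, 2 or 3 gave edgeR adjusted p-values of 0.0996, 0.0625 and 0.0713. With single libraries left out, the log2 fold change of Itgam ranged from 1.40 to 1.74.

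Itgal, the alpha chain of LFA-1 on most leukocytes (chromosome 7, 127296139 to 127335137), had 124.8, 174.7 and 192.9 normalised CPM with artemisinin and 114.4, 120.8 and 112.3 in the model. The groups did not overlap, but artemisinin replicate 1 was close to the model mice. The log2 fold change of 0.50 ± 0.18 (SE) missed the threshold (edgeR adjusted p = 0.156), and it passed without artemisinin replicate 1 (edgeR adjusted p = 0.0468). Itgax, the CD11c chain of dendritic cells and alveolar macrophages (chromosome 7, 128129526 to 128150657), had 117.1, 152.1 and 118.2 normalised CPM with artemisinin. Its model values of 132.2, 113.5 and 134.8 fell within that range or just below it. For Itgax the log2 fold change was 0.03 ± 0.16 (SE; adjusted p by edgeR = 0.930), and its sign turned when artemisinin replicate 2 or model replicate 2 was left out. Itga4, the chain shared by VLA-4 and the gut-homing integrin (chromosome 2, 79255426 to 79333114), had 165.2, 204.6 and 212.1 normalised CPM with artemisinin and 98.5, 146.3 and 131.3 in the model. All 3 artemisinin values were above the model values. The log2 fold change of Itga4 was 0.63 ± 0.19 (SE), with an edgeR adjusted p = 0.110 and a DESeq2 adjusted p = 0.0264.

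Per gene length, the 4 alpha chains that pair with Itgb2 were compared within each library by their FPKM, counts scaled to gene length and library total. In the model Itgax held the largest part of their summed FPKM, with 51.5%, 46.0% and 50.8% in replicates 1, 2 and 3, and Itgam held 10.1%, 12.9% and 14.0%. With artemisinin Itgam held 24.4%, 27.8% and 25.3%, and Itgax held 39.7%, 36.1% and 31.8%. The Itgam share was 13.5 percentage points higher and the Itgax share 13.6 percentage points lower, and neither pair of groups overlapped. Itgal held 36.1% ± 4.62 with artemisinin and 36.2% ± 2.70 in the model, and Itgad held 2.17% ± 0.732 and 2.05% ± 0.682 (SD over n = 3 mice each). The exact two-sided permutation p was 0.1 for the Itgam and the Itgax share, the smallest that 3 against 3 libraries can give, and 0.9 and 0.7 for Itgal and Itgad. Adjusted over the 5 shares tested, Itgam and Itgax had p = 0.167 (exact permutation test, Benjamini-Hochberg), so no share passed the threshold and none could have. Shares of a total are tied to each other, so a larger Itgam share lowers the others.

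**Figure D2:**
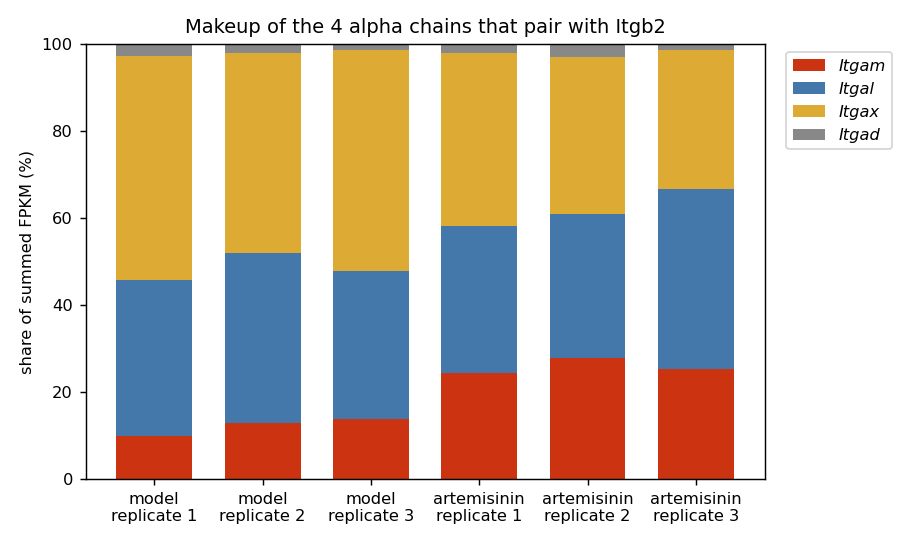
Share of each of the 4 alpha chains in their summed FPKM, 1 stacked bar per library, in percent. The red Itgam part is at most 14.0% in the model bars and at least 24.4% in the artemisinin bars, while the yellow Itgax part is smaller with artemisinin.

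The beta chains come next. Itgb2 (chromosome 10, 77530329 to 77565708) had 215.7, 361.6 and 314.5 normalised CPM with artemisinin and 220.9, 232.0 and 205.1 in the model. Artemisinin replicate 1 lay inside the model range and the other two lay above it. The log2 fold change was 0.44 ± 0.21 (SE; adjusted p by edgeR = 0.247), and it was not called in any of the 14 alternative settings. Itgb2 FPKM was between 1.09 and 1.28 times the summed alpha chain FPKM with artemisinin and between 1.15 and 1.40 times in the model. The Itgam FPKM was 0.225, 0.218 and 0.202 of the Itgb2 FPKM in artemisinin replicates 1, 2 and 3 and 0.0787, 0.0921 and 0.122 of it in the model, so those groups did not overlap.

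Itgb2l, also called pactolus, encodes a chain related to CD18 that is made by neutrophils and their precursors (Entrez 16415, chromosome 16, 96422288 to 96443664). It had 47, 37 and 607 counts in the artemisinin libraries and 2, 0 and 0 in the model libraries. Artemisinin replicate 3 held 87.8% of the artemisinin counts, and each of the other two artemisinin libraries still exceeded every model library. On the normalised scale the artemisinin values were 1.73, 1.16 and 17.3 CPM (edgeR adjusted p = 0.0394). With 2 model counts the ratio of rates is 383 with an exact binomial 95% interval of 106 to 3173, which covers counting error only, and without artemisinin replicate 3 it is 73.4 (19.7 to 616). Without model replicate 1 Itgb2l stood at 0 in the remaining model libraries and at least 168-fold higher with artemisinin, taking 3 counts over the group as the floor. The ratio was 497 (137 to 4117) without artemisinin replicate 1 and 562 (155 to 4646) without artemisinin replicate 2. The call was lost without artemisinin replicate 1 and without model replicate 1, 2 or 3 (edgeR adjusted p = 0.0632, 0.199, 0.125 and 0.155). As a part of the summed FPKM of both beta chains Itgb2l was 0.767%, 0.309% and 5.04% with artemisinin and at most 0.0264% in the model (exact two-sided permutation p = 0.1, the smallest possible, and 0.167 adjusted over the 5 shares). The model libraries had between 6524 and 7532 Itgb2 counts beside the 0 to 2 of Itgb2l. How reads were assigned between these paralogs was not tested. Igsf5, which overlaps Itgb2l on the opposite strand, had 18.5, 25.5 and 10.7 normalised CPM with artemisinin and 52.9, 31.8 and 39.2 in the model, the other direction.

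Fermt3 encodes kindlin-3, the activator of beta 2 and beta 3 integrins in blood cells (Entrez 108101, chromosome 19, 6998958 to 7019469). Its normalised CPM were 78.4, 69.9 and 87.8 with artemisinin and 43.5, 44.4 and 42.3 in the model. The model mice were nearly equal and every artemisinin mouse was above them. The means were 78.7 ± 8.99 and 43.4 ± 1.06 (SD over n = 3 mice each), or a log2 change of 0.86 ± 0.13 (SE; adjusted p by edgeR = 0.0224). The Fermt3 call was kept without any 1 artemisinin replicate and lost without model replicate 1, 2 or 3 (edgeR adjusted p = 0.117, 0.0956 and 0.113). The 3 members that rose lie on different chromosomes, whereas Itgam and Itgax are neighbours on chromosome 7 and Itgax was not called.

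The upstream sequences of the 3 members that rose are shown because PU.1, a transcription factor of myeloid cells that binds purine-rich sites, is known to act at the Itgam promoter. Each is the 250 bases before a start site in RefSeq, build GRCm38.p6, on the gene's own strand, and capitals mark GAGGAA, a core of the PU.1 site, or its reverse complement TTCCTC.
Itgam, chr7:128062390-128062639, plus strand: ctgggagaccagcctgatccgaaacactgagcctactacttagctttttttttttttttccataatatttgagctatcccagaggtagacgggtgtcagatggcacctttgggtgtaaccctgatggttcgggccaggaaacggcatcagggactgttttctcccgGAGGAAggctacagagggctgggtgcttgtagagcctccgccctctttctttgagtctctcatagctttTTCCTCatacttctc
Itgb2l, chr16:96443615-96443864, minus strand: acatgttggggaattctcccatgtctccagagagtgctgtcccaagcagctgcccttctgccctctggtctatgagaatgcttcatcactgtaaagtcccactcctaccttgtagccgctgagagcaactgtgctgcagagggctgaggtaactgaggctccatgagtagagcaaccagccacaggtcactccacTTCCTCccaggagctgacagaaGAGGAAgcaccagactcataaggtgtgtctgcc
Fermt3, chr19:7019470-7019719, minus strand: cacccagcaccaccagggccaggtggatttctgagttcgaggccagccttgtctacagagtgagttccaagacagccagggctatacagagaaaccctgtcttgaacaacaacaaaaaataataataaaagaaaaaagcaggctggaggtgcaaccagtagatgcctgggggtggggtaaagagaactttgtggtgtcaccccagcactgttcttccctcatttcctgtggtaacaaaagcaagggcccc
The Itgam window held the motif at 2 places, beginning 84 and 15 bases before the start site, once on each strand. The Itgb2l window also held it at 2 places, beginning 55 and 33 bases before the start site, again once on each strand, and the Fermt3 window held none. The start site listed for Itgb2l lies inside the gene span given above, so the end of its window, with the motif nearer the start site, is within that span. Of the 6 members with a sequence in the table, the motif was in these 2 only, and the windows of Itgax, Itga4 and Icam1 held none. Over the first listed start site of 27025 genes, 23.1% of windows of this length held GAGGAA on either strand. The motif TTGCNNAA, a form of the C/EBP site, was in none of the 6 windows and in 9.55% of all windows. A match describes letters in the window and not binding.

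Neither ICAM ligand gene passed the test. Icam1, the inducible ligand of LFA-1 and Mac-1 that lung epithelium and endothelium also carry (chromosome 9, 21015940 to 21028814), had 371.9, 538.2 and 323.3 normalised CPM with artemisinin and 492.4, 503.9 and 536.6 in the model. In artemisinin replicates 1 and 3 it was below the model range, and in replicate 2 slightly above it. The log2 fold change of Icam1 was −0.31 ± 0.22 (SE; adjusted p by edgeR = 0.407). Icam2, a constitutive ligand of LFA-1 on endothelium and platelets (chromosome 11, 106377656 to 106388139), had 66.1, 92.4 and 160.3 normalised CPM with artemisinin and 74.4, 115.3 and 127.2 in the model. The spread within each group was larger than the difference between them, with a log2 change of 0.01 ± 0.34 (SE; adjusted p by edgeR = 0.988) whose sign turned without artemisinin replicate 3 or model replicate 1. The endothelial marker sum had the same order of libraries within each group, with 1603, 2147 and 3544 normalised CPM in artemisinin replicates 1, 2 and 3 and 1720, 2804 and 2851 in the model. The part of endothelial content in the Icam2 values was not tested.

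**Figure D3:**
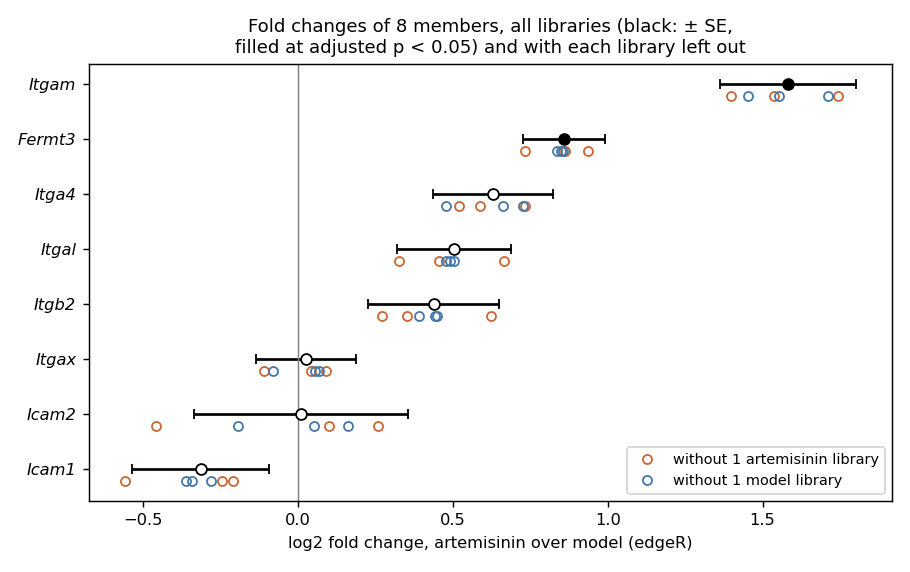
Log2 fold change of 8 members from edgeR (artemisinin over model; black point ± SE, filled at an adjusted p under 0.05), with open points for the value after each library was left out. Itgb2l is not drawn, since its fold rests on 2 model counts. The open points of Itgam, Fermt3, Itga4, Itgal and Itgb2 all lie above 0, those of Icam1 all lie below 0, and those of Itgax and Icam2 fall on both sides.

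The order of levels per gene length was similar in all libraries. Icam1 had the highest FPKM of the 9 members in each library, at 164.2 ± 38.4 with artemisinin and 191.4 ± 9.38 in the model (SD over n = 3 mice each). Itgb2 followed with 105.2 ± 23.5 and 72.7 ± 5.39, and Icam2 with 71.2 ± 33.7 and 65.9 ± 17.8, where the spreads of Itgb2 and Icam2 overlapped. Fermt3, Itgal and Itgax came next, at 31.6 ± 4.59, 31.3 ± 6.62 and 30.8 ± 3.48 FPKM with artemisinin, within each other's spread. In the model these 3 were apart, with Itgax at 28.3 ± 2.17, Itgal at 20.7 ± 1.13 and Fermt3 at 16.2 ± 0.617 FPKM. Itgam stood at 22.5 ± 4.58 FPKM with artemisinin and 7.04 ± 1.30 in the model, where it was below Itga4 at 9.18 ± 1.94. With artemisinin Itga4 was at 15.2 ± 1.85 FPKM, below Itgam in all 3 libraries. Itgb2l was the lowest member in every library.

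Leukocyte markers moved with these members. The summed level of 5 general leukocyte markers was between 1510 and 1741 normalised CPM with artemisinin and between 872 and 983 in the model. All 5 were higher on average and 3 of them were called higher, where 2.17% of all genes were. Ptprc, the CD45 gene, had 432.1, 423.9 and 485.2 normalised CPM with artemisinin and 267.6, 295.6 and 283 in the model, a log2 change of 0.66 ± 0.15 (SE; adjusted p by edgeR = 0.0542). Since Ptprc was higher, each member was also taken as a ratio of FPKM to Ptprc FPKM, a choice made after these values were seen. Itgam was 0.226, 0.374 and 0.263 of Ptprc with artemisinin and 0.131, 0.146 and 0.178 in the model. Fermt3 was 0.412, 0.374 and 0.410 of Ptprc against 0.369, 0.341 and 0.339. Itgb2 was 1.006, 1.72 and 1.31 times Ptprc with artemisinin and 1.66, 1.58 and 1.46 times in the model, so its groups overlapped. Itgam, Fermt3 and Itgb2l were thus the members whose ratio to Ptprc was higher in every artemisinin library, which held for 3.06% of all genes. The ratios of Itgax and Icam1 were lower in every artemisinin library, which held for 58.1% of all genes.

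Several neutrophil and monocyte markers rose. Of 12 neutrophil markers 11 were higher on average and 6 were called higher, where 2.17% of all genes were. The sum of the 12 was between 995 and 5493 normalised CPM with artemisinin and between 897 and 1258 in the model. Lcn2, which epithelium also makes, led the model sums. Without Lcn2, a choice made after its values were seen, the sums were 920, 1226 and 5049 normalised CPM with artemisinin and between 186 and 254 in the model. S100a9, a calprotectin subunit gene of neutrophils and monocytes, had 330.8, 422.9 and 1894 normalised CPM with artemisinin and at most 57.1 in the model. Ly6g, the defining surface marker of mouse neutrophils, had 5.23, 5.59 and 20.4 against at most 0.616. Both were called, and neither was without any 1 model replicate (edgeR adjusted p of 0.0972 to 0.148 for S100a9 and 0.0660 to 0.117 for Ly6g). Artemisinin replicate 3 thus had the highest neutrophil marker sum and the highest S100a9, Ly6g and Itgb2l, whereas Itgam was highest in replicate 2. Csf3r, the G-CSF receptor gene among these markers, was named after its values were seen. It was highest in replicate 1, with 125.6, 79.4 and 104.9 normalised CPM in artemisinin replicates 1, 2 and 3.

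Of 8 monocyte markers 5 were called higher, where 2.17% of all genes were. Csf1r, the receptor gene that marks monocytes and macrophages, rose from 117.7 ± 4.21 to 215.1 ± 13.2 normalised CPM (SD over n = 3 mice each; edgeR adjusted p = 0.0216). Without model replicate 1, 2 or 3 the Csf1r call was lost (edgeR adjusted p = 0.117, 0.0859 and 0.106). All 8 were higher on average, and 6 were higher at an unadjusted edgeR p under 0.05, where 13.7% of all genes were. Ly6c2, named after its values were seen, was higher on average through artemisinin replicate 3 only. It had 5.64, 8.86 and 108.6 normalised CPM in artemisinin replicates 1, 2 and 3 and 50.9, 24.2 and 35.4 in the model. The monocyte sum overlapped between the groups, at 1275 to 2546 normalised CPM with artemisinin and 1051 to 1376 in the model. Ace, named after its values were seen, was the largest part of every monocyte sum. It had 483.3, 840.6 and 1621 normalised CPM with artemisinin and 733.6, 1010 and 1072 in the model. The monocyte sum without Ace is not given here. The 8 alveolar macrophage markers were all lower on average, with overlapping sums of 817 to 4690 against 2500 to 4077. Of these 8 edgeR called 1 lower, where it called 2.30% of all genes lower, and DESeq2 called 2. Chil3, named after its values were seen, was the largest part of each of these sums. It had 542.1, 4172 and 2531 normalised CPM with artemisinin and 3098, 1855 and 2711 in the model. The sum without Chil3 is not given here. The interstitial macrophage, T cell, NK cell and B cell sums overlapped between the groups, and edgeR called no marker of these lists. Each of these 4 lists, of 5 to 7 tested markers, had 1 marker higher at an unadjusted edgeR p under 0.05. Over all genes 13.7% were higher at that level. DESeq2 called 1 NK cell marker and none of the other lists. Cd3e, the T cell receptor subunit gene, had 14.1, 9.30 and 25.8 normalised CPM with artemisinin and 11, 14.4 and 11.6 in the model. The dendritic cell sums did not overlap, at 85.6 to 126.1 normalised CPM with artemisinin and 65.2 to 84.9 in the model. Of the 7 dendritic cell markers edgeR called 0 and DESeq2 called 1. The mast cell and eosinophil sums were lower in every artemisinin library, and edgeR called 0 markers of that list. No marker of the leukocyte lists was at 0 in a library except Epx, an eosinophil gene. Of 6 platelet and megakaryocyte markers edgeR called 0, and 5 were higher at an unadjusted edgeR p under 0.05, where 13.7% of all genes were. DESeq2 called 4 of these 6, where it called 8.14% of all genes higher and 6.94% lower. The sums of this list overlapped between the groups. The part of each cell type in the changes of Itgam, Fermt3 and Itgb2l was not tested.

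**Figure D4:**
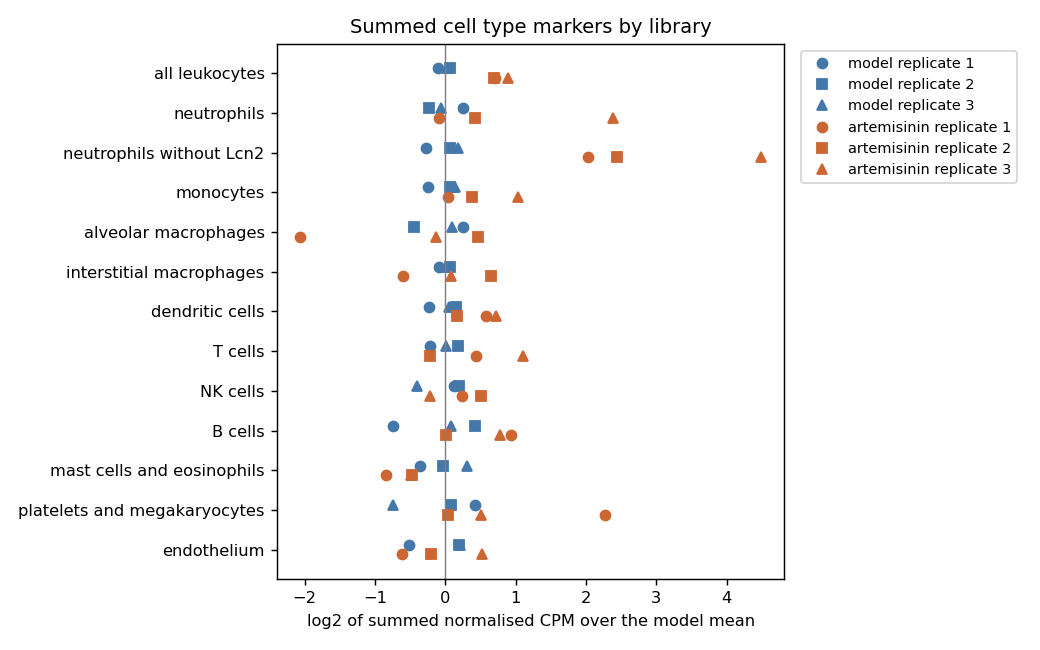
Summed normalised CPM of each cell type's markers in each library, as log2 of the ratio to the model mean (blue model, orange artemisinin, 1 shape per replicate number). The orange points of all leukocytes and of neutrophils without Lcn2 lie above the blue ones, and those of macrophages, lymphocytes and endothelium overlap with them.

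Other genes of leukocyte adhesion were read from a list of 72 genes in 5 roles, of which 70 were tested. Of these, 9 rose and 2 fell, where 2.17% of all genes were called higher and 2.30% lower, and their median log2 fold change was 0.37 beside 0.04 over all genes. The list was chosen with earlier results of these data known. Without artemisinin replicate 1, 2 or 3 the list had 2, 13 and 0 genes called higher, and 0, 4 and 3 called lower. Over all genes these fits called 169, 670 and 276 higher, and 140, 713 and 218 lower. Without any 1 model replicate edgeR called none of the list and 6 to 39 of all genes higher and 11 to 79 lower. In those fits 21 to 22 list genes were higher and 4 to 5 lower at an unadjusted p under 0.05. The shares of all genes at that level in those fits are not given here. The genes named below that rose thus lost their call without artemisinin replicate 3 or any 1 model replicate, and all but Fyb lost it without artemisinin replicate 1. Itga9 and Fut4, which fell, lost it without artemisinin replicate 1 or any 1 model replicate.

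Among the 12 other integrin subunits 1 rose and 1 fell. Itgb7, the beta chain that pairs with Itga4 or Itgae on lymphocytes and mast cells, rose from 38.2, 53.4 and 40.6 in the model to 103.4, 66.4 and 109 normalised CPM with artemisinin (log2 1.08 ± 0.23, SE; adjusted p by edgeR = 0.0460). Its groups did not overlap. Itga9, the alpha chain of the receptor for tenascin and VCAM-1, fell from 277.7, 223.7 and 236.4 to 51.1, 106.9 and 62.5 normalised CPM (log2 −1.74 ± 0.28, SE; adjusted p by edgeR = 0.0252), also without overlap. Itgb1, the widespread beta 1 chain and the other partner of Itga4, had 894.5 ± 279.7 with artemisinin and 961.2 ± 39.0 normalised CPM in the model (SD over n = 3 mice each; edgeR adjusted p = 0.827). Itgad, the CD11d chain, had 7.72 ± 3.56 and 5.06 ± 1.65 normalised CPM (edgeR adjusted p = 0.385).

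Of 12 tested genes for other beta 2 ligands and endothelial counter-receptors, 0 were called in either direction by edgeR or limma on the FPKM. By DESeq2 1 was called higher, where it called 8.14% of all genes higher. At an unadjusted edgeR p under 0.05 there were 3 higher and 1 lower, where 13.7% of all genes were higher and 11% lower. Without artemisinin replicate 2 edgeR called 1 of the 12 higher, Thy1, named after its values were seen. Vcam1, the endothelial ligand of VLA-4, had 67.7, 89.7 and 90.1 normalised CPM with artemisinin and 96.5, 88.4 and 80.9 in the model (edgeR adjusted p = 0.705), and the sign of its small negative difference turned without artemisinin replicate 1.

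The adaptors of inside-out activation, which carry signals from other receptors to the integrin tail, had 1 of 19 genes called higher. This was Fyb, the adaptor ADAP, which rose from 47.5 ± 3.69 to 115 ± 33.5 normalised CPM (SD over n = 3 mice each; log2 1.28 ± 0.22, SE; adjusted p by edgeR = 0.0270). With all 6 libraries none of the 19 was called lower by edgeR, DESeq2 or limma, and 1 was lower at an unadjusted edgeR p under 0.05. With scaling by library totals 4 of the 19 were called higher, and none lower. That setting called 450 of all 15242 genes tested higher and 332 lower. Without artemisinin replicate 2, 3 were called higher and 1, the talin gene Tln2, lower, a gene named after its values were seen. Tln1, the talin gene that acts beside kindlin-3, had 381, 522.6 and 531.1 normalised CPM with artemisinin and 375.5, 412.2 and 445.8 in the model. Those groups overlapped and Tln1 was not called (log2 0.22 ± 0.19, SE; adjusted p by edgeR = 0.499).

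The kinases and adaptors that signal outside-in from bound integrins held the most calls, with 6 of 17 higher, where 2.17% of all genes were. A positive fold change was found in 16 of 17, and in 8105 of all 15242 genes tested. Their median log2 fold change was 0.59. Coro1a, an actin regulator of leukocytes that is also one of the general leukocyte markers above, rose from 167.3 ± 18.3 to 384.1 ± 91.8 normalised CPM (SD over n = 3 mice each; edgeR adjusted p = 0.0312). Fgr, a Src family kinase of myeloid cells, rose 1.66-fold, Was, the actin nucleation regulator of Wiskott-Aldrich syndrome, rose 1.79-fold, and Lcp2, the adaptor SLP-76, rose 1.71-fold (edgeR adjusted p = 0.0370, 0.0394 and 0.0412). With all 6 libraries none of the 17 was called lower by edgeR, DESeq2 or limma, and 1 was lower at an unadjusted edgeR p under 0.05. Without artemisinin replicate 1, 2 or 3, 1, 6 and 0 of the 17 were called higher, and without any 1 model replicate 0. Without artemisinin replicate 2, 1 of the 17 was also called lower, the kinase gene Src, named after its values were seen.

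Selectins and their ligands let leukocytes roll before integrins arrest them, and 1 gene of this role fell. Fut4, a fucosyltransferase gene for selectin ligand sugars, fell from 38.4, 25.9 and 25.9 to 8.48, 12.1 and 12.5 normalised CPM (log2 −1.45 ± 0.24, SE; adjusted p by edgeR = 0.0257). Selplg, the gene of the P-selectin ligand PSGL-1, had 85.7, 92.5 and 122 normalised CPM with artemisinin and 70.5, 67.9 and 64.3 in the model, without overlap and without a call (edgeR adjusted p = 0.0967; DESeq2 adjusted p = 0.0297).

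**Figure D5:**
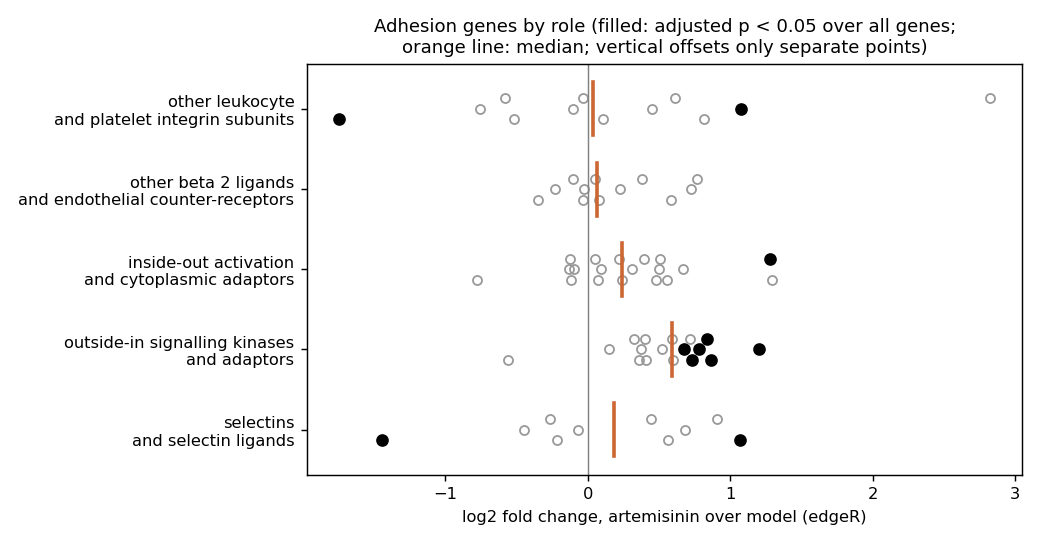
Log2 fold change (edgeR, artemisinin over model) of 70 other adhesion genes in 5 roles, each point 1 gene, filled at an adjusted p under 0.05 over all genes, with the median of each role in orange. The outside-in kinases and adaptors hold 6 of the 11 filled points, all above 0.

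The genes most like Itgb2 and Itgb2l across the 6 libraries were named by Pearson correlation of log2 CPM, among genes that averaged 1 CPM or more. For Itgb2 they were Fcgrt (r = 0.995), Acbd6 (0.989), Crtap (0.977), Shisa2 (0.972) and C1qa (0.972). Fcgrt, the neonatal Fc receptor gene, had 71.2, 105.1 and 98.2 normalised CPM with artemisinin and 70.3, 74.6 and 68.1 in the model, with replicate 1 in the model range as for Itgb2. For Itgb2l they were Rras2 (r = 0.994), Fcgr1 (0.991), Alox5ap (0.990), Prtn3 (0.989) and Glipr2 (0.988). Prtn3, the proteinase 3 gene of neutrophil precursors, had 13.05, 11 and 106.2 normalised CPM with artemisinin and at most 0.786 in the model. Over 6 points that share the group difference such correlations are a description, and 14387 genes were searched for them.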

How the data were processed

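Per the labels' protocols, RNA was isolated with a mirVana kit and made into libraries with a stranded polyadenylated mRNA kit, and the build was GRCm38 (mm10), per the submitters' processing notes. The aligner, counter, annotation and strand setting are not given in the sources used here. Reads of overlapping genes may therefore be mixed. The authors deposited read counts per gene and FPKM. Checked against the counts, the deposited FPKM are the same counts divided by library total and a length per gene (largest relative difference 5.3e-07 in 15462 genes).

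Counts of all genes were fitted in R 4.3.3 by edgeR 4.0.16 (filterByExpr, TMM factors of 0.950 to 1.06, robust glmQLFit, glmQLFTest, Benjamini-Hochberg adjustment, threshold 0.05). Standard errors came from each fold change divided by the root of F. FPKM were tested with limma 3.58.1 on log2(FPKM + 0.1) for genes averaging 0.5 or more, where the pseudocount shrinks changes of low genes. DESeq2 1.42.0, other scalings, filters and left-out libraries were alternatives. The main edgeR fit and DESeq2 were tested on simulated counts. Limma was tested on these counts scaled by library total, without gene lengths, so not on simulated FPKM. The other settings were not tested in this way, and the outcome of these tests is not given here. Chain shares were compared by exact permutation. A count of 3 stands at 0.0863 to 0.117 CPM.

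The 9 members are named whatever their result. Of the adhesion list the text names up to 4 called genes with the smallest p per role, and 7 fixed genes, of which 1 is not reported here, and it names 6 defining markers and the 5 most alike genes. Members and lists were chosen with earlier results of these data known. The 17 marker lists were summed per library. The sums not given in the text were 39.8 to 65.7 normalised CPM with artemisinin and 35.0 to 53.0 in the model for NK cells, 154.4 to 294 and 91.3 to 205.6 for B cells, 79.3 to 197.6 and 79.0 to 104.5 for T cells, 336 to 801.1 and 477.9 to 530.1 for interstitial macrophages, 95.0 to 123.3 and 133.2 to 211 for mast cells and eosinophils, 66.8 to 314.6 and 39.0 to 87.7 for platelets, 1661 to 3832 and 2348 to 3108 for alveolar type 1 cells, and 20470 to 71886 and 7936 to 20128 for club cells. Entrez numbers gave coordinates from RefSeq's GRCm38.p6 table.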

Additional observations from a re-analysis of the deposited data

How the results depend on the processing

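Of 14 alternative settings, Itgam kept its call in 11, Fermt3 in 10 and Itgb2l in 6, and all 3 kept their direction in each. Itgb2l was not called by limma on the FPKM, with an adjusted p = 0.0981, 0.106 without the filter and 0.234 with a pseudocount of 1. DESeq2 called 1234 genes higher and 1052 lower, and 22 adhesion genes higher. Scaling by library totals called 450 of all genes and 14 adhesion genes higher. It shifted the median over all genes from 0.04 to 0.14 (log2). Limma without a filter called 207 genes lower. With each library left out in turn, 6 to 670 genes were called higher and 11 to 713 lower, 0 to 3 members higher, and 0 to 13 adhesion genes higher and 0 to 4 lower. Such fits also have fewer mice. The cause of these changes was not tested. With the replicate number as a block, 66 genes were called higher and 63 lower, 1 member (Itgam), and 0 adhesion genes higher and 0 lower. Same-numbered libraries did not deviate together (correlations of 0.00, −0.10 and 0.03 over 15242 genes), and artemisinin replicate 1 correlated best with model replicate 2, so the numbers were not taken to pair mice. Uncalled log2 fold changes turned sign in 6 genes. With each library left out they ranged from −0.11 to 0.0914 for Itgax (−0.0812 without model replicate 2), −0.457 to 0.259 for Icam2 (−0.192 without model replicate 1, and −0.0515 with the replicate block), −0.275 to 0.133 for Itgb1, −0.214 to 0.0202 for Vcam1, −0.109 to 0.696 for Cd3e and −0.879 to 0.165 for Cdh5. Differences in alpha chain shares moved by less than 1 SD in all settings run, between 12.4 and 14.4 percentage points for Itgam with 1 library left out. The difference in the Itgb2l share was 2.03 percentage points with all libraries and 0.529 without artemisinin replicate 3. Depth limits Itgb2l in the model, where 2 counts were found.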
